A study of Mus musculus with 18 samples.

Results

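The 10 genes described here are Fos, Fosb, Fosl1, Fosl2, Jun, Junb, Jund, Egr1, Egr2 and Atf3, the AP-1 and early growth response transcription factors. They were taken by gene symbol from the 55487 genes of the count table. The rule used no measured value, but the members were chosen with earlier results of these data known. The cells were BV2, an immortalised mouse microglial line, so all values come from 1 line in culture. RNA was sequenced from nuclear and cytoplasmic fractions of untreated cells (0 h) and of cells given 10 µM oxyhemoglobin, the oxygen-carrying blood pigment, for 12 or 24 h. Each of the 6 groups had 3 libraries, 18 in all, and the labels name no genetic change for any group beyond the line itself. Cells of every group were detached with trypsin before a hypotonic NP-40 lysis separated the fractions. The design has no untreated cells at the later times, so the effects of oxyhemoglobin and of longer culture cannot be told apart.

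AP-1 is a dimer of basic leucine zipper proteins, usually a Fos protein joined to a Jun protein, which binds short DNA elements in promoters and enhancers. Its genes are known as immediate early genes, because existing kinases and transcription factors can switch them on without new protein synthesis. In microglia and macrophages AP-1 works beside the lineage factor PU.1 and takes part in the response to inflammatory signals. The EGR proteins are zinc finger factors of the same early class, and ATF3 is a basic leucine zipper protein that is induced by stress and often represses its targets.

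Each group was deposited as the mean of its 3 libraries. No spread between libraries could therefore be computed, and no p-value is given. A level below is a normalised count per 1000000 (CPM), scaled within its fraction unless stated otherwise, and a change is the log2 ratio of these scaled means. The bracketed interval is a 95% counting interval from the reads summed over the 3 libraries. It covers counting error only and says nothing of differences between cultures. "Rose" and "fell" are used where a ratio was at least 2-fold and its interval excluded 0. The comparisons of 12 h and 24 h use the same 0 h group, so they are not independent of each other. A level is a mean over all cells of a culture, so more cells with a transcript and more transcript per cell cannot be told apart.

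Summed over 3 libraries, the groups held 14652566 to 22379595 counts. Between 7 and 10 of 15 microglial marker genes reached a mean count of 10 in each group. Their summed level was 1358, 865 and 786 CPM per total counts in the nucleus at 0, 12 and 24 h, and 930, 697 and 660 in the cytoplasm. Single markers went both ways: Tmem119 rose in the nucleus from 1.02 to 3.71 and 4.80 CPM, Spi1 rose there at 12 h and Cd68 at 24 h, while Cx3cr1, Trem2 and Tyrobp fell there at both times. In the cytoplasm Cd68 rose, and Trem2 and Tyrobp fell, at both times. P2ry12, another microglial marker, was at 0 in 4 of the 6 groups. RNAs known to stay in the nucleus summed to 52542 to 58900 CPM in the nuclear groups and 2014 to 3601 in the cytoplasmic ones. Of 8 cytosolic housekeeping genes 5 were higher in the cytoplasm at each time, but Gapdh, Pgk1 and Ldha were higher in the nucleus at each time, Gapdh at 143 CPM against 18.5 at 0 h. The part of this in the ratios between fractions was not tested. Of 8 fibroblast and muscle markers, 3 reached a mean count of 10 in cytoplasmic RNA at 12 h and in no other group. Their summed level there was 29.2 CPM, against 0.0447 at 0 h and 0.717 at 24 h in the same fraction and 1.25 to 1.70 in the nucleus, while Dcn and Pdgfra were at 0. The 5 endothelial markers summed to 1.74 CPM in the cytoplasm at 0 h, 6.59 at 12 h and 6.50 at 24 h, with Tek at 0 at 0 and 12 h. In the nucleus they summed to 7.30, 8.18 and 10.0 CPM at 0, 12 and 24 h. The part of these signals in the cytoplasmic results was not tested.

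The promoters of 4 members are shown because these genes took different courses: Fos, whose 2 fractions moved apart, Jun, which stayed under 2-fold, Junb, which rose in both fractions, and Egr2, which fell in nuclear RNA. Each is the 250 bases before a RefSeq start site in GRCm38.p6, written 5′ to 3′ on the gene's strand, with matches to a searched motif in capitals. RefSeq starts were found for 8 of the 10 members. The Fos window is chr12:85473640-85473889 on the plus strand, Jun is chr4:95052223-95052472 and Junb is chr8:84978749-84978998, both on the minus strand, and the Egr2 window belongs to the third of its RefSeq starts, chr10:67537619-67537868 on the plus strand.
Fos: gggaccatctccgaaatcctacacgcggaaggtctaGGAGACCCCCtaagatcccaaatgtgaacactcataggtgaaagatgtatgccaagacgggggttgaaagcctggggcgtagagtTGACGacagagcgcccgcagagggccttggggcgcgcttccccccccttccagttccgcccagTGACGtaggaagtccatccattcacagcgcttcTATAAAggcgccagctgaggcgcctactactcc
Jun: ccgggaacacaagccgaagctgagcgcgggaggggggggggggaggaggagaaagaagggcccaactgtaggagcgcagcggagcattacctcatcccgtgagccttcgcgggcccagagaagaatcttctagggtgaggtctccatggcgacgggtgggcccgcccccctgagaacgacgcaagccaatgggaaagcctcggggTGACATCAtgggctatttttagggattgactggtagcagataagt
Junb: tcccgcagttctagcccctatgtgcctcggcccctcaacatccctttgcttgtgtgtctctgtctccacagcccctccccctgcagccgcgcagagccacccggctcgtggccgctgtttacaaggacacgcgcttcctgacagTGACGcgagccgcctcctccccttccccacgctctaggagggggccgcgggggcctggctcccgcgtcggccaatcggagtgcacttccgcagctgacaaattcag
Egr2: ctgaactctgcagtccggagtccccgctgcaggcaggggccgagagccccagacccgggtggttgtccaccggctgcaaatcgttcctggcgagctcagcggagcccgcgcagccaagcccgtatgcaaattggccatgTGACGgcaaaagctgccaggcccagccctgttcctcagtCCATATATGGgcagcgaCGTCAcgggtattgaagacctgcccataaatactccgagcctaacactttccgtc

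The motifs searched on both strands were the AP-1 site TGANTCA, the cyclic AMP response element TGACGTCA, its looser form TGACNTCA, its shorter core TGACG, the EGR site GCGNGGGCG, the TATA box TATAAA, and by name the CArG box of serum response factor and the NF-kB site. TGACG lies within TGACGTCA, which in turn matches TGACNTCA. The looser form was added after the sequences had been seen. Positions count back from the start site. In Fos, TGACG occurred at −129 to −125 and −66 to −62, the TATA box at −33 to −28, and an NF-kB match on the opposite strand at −214 to −205. Jun held TGACATCA, a match to TGACNTCA, at −45 to −38. Junb held TGACG at −106 to −102. The Egr2 window held a CArG box at −72 to −63, with TGACG at −111 to −107 and, on the opposite strand, at −55 to −51. Of 32851 promoter windows of this length, 6.75% held the AP-1 site, 1.55% TGACGTCA, 7.49% TGACNTCA, 17.8% TGACG, 4.70% the EGR site, 12.4% the TATA box, 1.47% the CArG box and 3.90% the NF-kB site. A match describes these letters only, and no binding was measured.

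After 12 h of oxyhemoglobin 5 of the 9 members compared in nuclear RNA rose and 2 fell. Fosl1, Fosl2, Junb, Jund and Atf3 rose, Fosb and Egr2 fell, and Fos and Jun stayed under the 2-fold limit. Among all 17295 genes compared, 7.92% rose and 6.64% fell. The members' median log2 ratio was 1.22, beside 0.00 over all genes. At 24 h the count was again 5 higher and 2 lower of 9, where 7.88% of all genes rose and 5.75% fell, with medians of 1.15 and −0.02. In cytoplasmic RNA 6 members had enough reads. At 12 h 4 of them rose and none fell (Fos, Fosl2, Junb and Atf3), where 11.7% of 11751 genes rose and 8.99% fell. At 24 h 2 of 6 rose (Junb and Atf3) and none fell, beside 10.4% and 6.72% of all genes. Egr1 was compared in neither fraction, and Fosb, Fosl1 and Egr2 were not compared in the cytoplasm. In the nucleus Fosl1 and Atf3 reached the count limit only in the treated groups, and Egr2 only at 0 h. Atf3 also reached it in the cytoplasm only in the treated groups. Members that entered only through groups in which they were high had to differ, so these counts describe the compared members and not all 10. The counts also depended on the scaling. Total counts lowered the share of higher among all called nuclear genes from 54.4% to 31.9% at 12 h and from 57.8% to 27.5% at 24 h. With this scaling the nuclear rises of Junb and Atf3 at 24 h were lost, and Fos was called lower. At 12 h the nuclear rise of Jund was lost. In the deposited TPM with a pseudocount of 1, whose all-gene medians moved by −0.29 to −0.67 (log2), the calls were Fosl1 and Fosl2 higher and Fos lower in the nucleus at 12 h, Fosl1 higher and Fos lower at 24 h, and none in the cytoplasm.

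**Figure D1:**
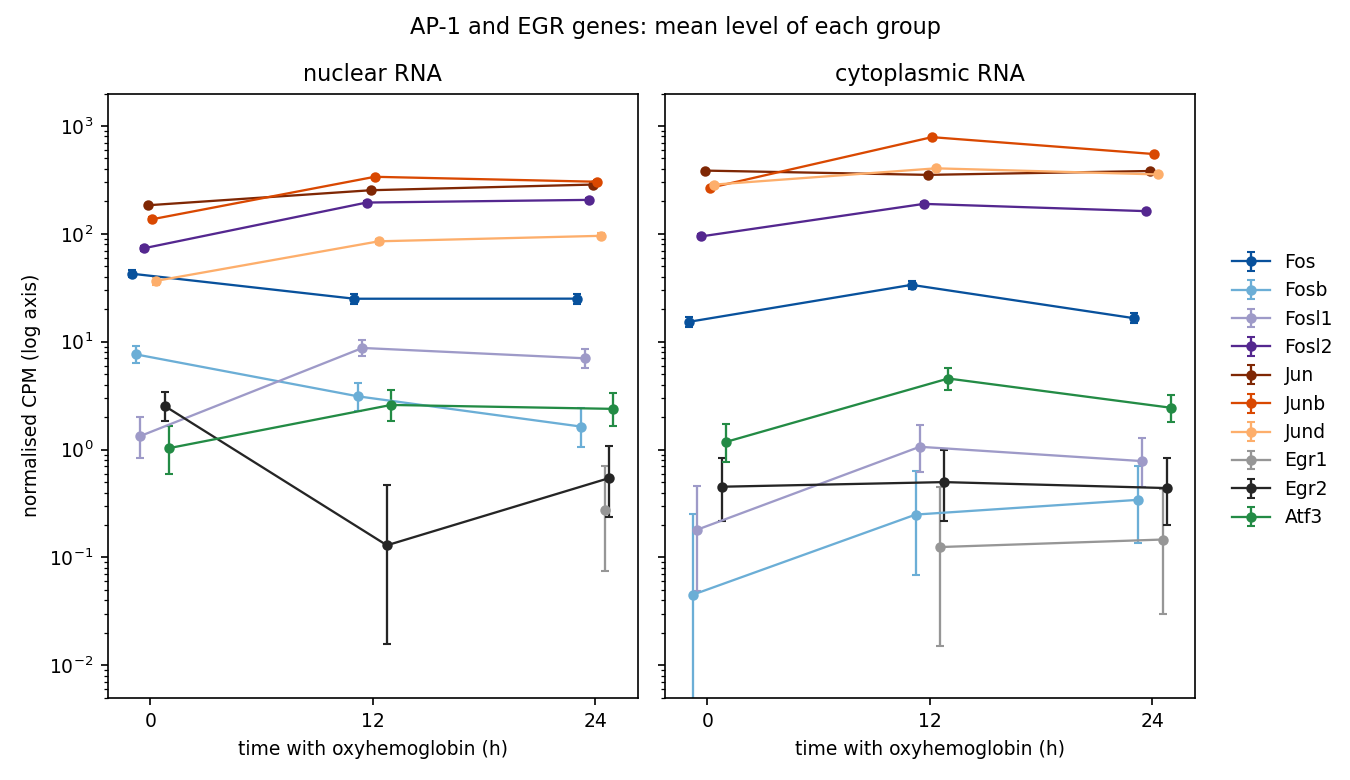
Mean level of each of the 10 genes by time with oxyhemoglobin, in nuclear RNA (left) and cytoplasmic RNA (right), as normalised CPM scaled within the fraction on a log axis. Points are the mean of 3 libraries, bars are exact 95% Poisson intervals of the summed reads, and a group with 0 reads is not drawn. Junb stood at 788 CPM in the cytoplasm at 12 h, above Jun at 352 and Jund at 405, while nuclear Fos went from 42.7 to 25.1 CPM and nuclear Fosl1 from 1.33 to 7.02 by 24 h.

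Fos (ENSMUSG00000021250, chromosome 12, 85473890 to 85477273, plus strand), the founding member of its family, has up to 4 exons and 2352 exonic bases. Its nuclear level was 42.7 CPM at 0 h, 25.0 at 12 h and 25.1 at 24 h, from 705, 386 and 368 summed reads. Untreated nuclei thus held the highest value, and both treated groups were alike (24 h against 12 h, log2 ratio 0.00). The log2 ratio was −0.77 [−0.95, −0.59] at 12 h, or 1.71-fold lower, and −0.77 [−0.95, −0.58] at 24 h, under the limit for a call. Scaled to total counts, the 24 h value was −1.07 and passed it. Cytoplasmic Fos took the opposite course at 12 h, with 15.3 CPM at 0 h, 33.7 at 12 h and 16.5 at 24 h. It rose by 12 h (log2 ratio 1.14 [0.94, 1.34]) and was back near its untreated level by 24 h (0.11 [−0.11, 0.33]). From 12 to 24 h it fell by 1.03 on the log2 scale [−1.23, −0.83], a call that ended with total counts (−0.91). In the deposited TPM, whose all-gene median moved by −0.73 at 12 h (log2, pseudocount 0.1), the cytoplasmic rise was 0.40 and not called. After centring on that median it was 1.13.

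Fosb (ENSMUSG00000003545, chromosome 7, 19302696 to 19310051, minus strand) encodes FOSB and a truncated form that accumulates in stimulated neurons. Nuclear levels were 7.63, 3.11 and 1.64 CPM at 0, 12 and 24 h, from 126, 48 and 24 summed reads. It fell by 1.29 at 12 h [−1.80, −0.80] and by 2.22 at 24 h [−2.92, −1.58], which was 4.67-fold lower. The level was thus highest before treatment and lowest at 24 h. In the cytoplasm 1, 4 and 7 reads were summed at the same times, too few for a comparison.

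Fosl1 (ENSMUSG00000024912, chromosome 19, 5447547 to 5455946, plus strand) encodes FRA1, a Fos protein without the strong activation domain of FOS. It had the largest rise of the 9 compared members, from 1.33 CPM in untreated nuclei to 8.76 at 12 h and 7.02 at 24 h (22, 135 and 103 summed reads). The log2 ratios were 2.72 [2.06, 3.44], or 6.57-fold, and 2.40 [1.72, 3.13]. In nuclei Fosl1 reached the count limit only in the treated groups, so the filter favoured a rise. Its cytoplasmic levels of 0.181, 1.06 and 0.782 CPM rested on 4, 17 and 16 reads. Because 1163 of its 2033 exonic bases overlap exons of Ccdc85b on the other strand, and no strand setting is given in the sources used here, reads of these genes may be shared.

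Fosl2 (ENSMUSG00000029135, chromosome 5, 32135801 to 32157842, plus strand) encodes FRA2, the other Fos protein of this type. Its nuclear level was 73.6, 195 and 207 CPM at 0, 12 and 24 h. Nuclear Fosl2 rose 2.65-fold by 12 h (log2 ratio 1.41, lower bound 1.31) and 2.81-fold by 24 h (1.49 [1.39, 1.59]). In the cytoplasm the level was 94.8, 190 and 162 CPM. The cytoplasmic ratio at 12 h lay at the limit (1.00 [0.92, 1.08]) and fell below it with total counts (0.97) or median-of-ratios scaling (0.99). At 24 h it was 0.78 [0.70, 0.86]. Both treated groups stood above the untreated one in both fractions.

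Jun (ENSMUSG00000052684, chromosome 4, 95049034 to 95052222, minus strand) is a single-exon gene of 3189 bases, and its protein is the usual partner of FOS. Nuclear Jun was at 184, 254 and 286 CPM at 0, 12 and 24 h, and cytoplasmic Jun at 386, 352 and 383. The nuclear log2 ratio was 0.46 [0.39, 0.53] at 12 h and 0.64 [0.57, 0.70] at 24 h. The cytoplasmic ratio was −0.13 [−0.18, −0.08] at 12 h and −0.01 [−0.06, 0.03] at 24 h. Jun was thus under the 2-fold limit at both times in both fractions. Of its exonic bases 232 overlap the antisense gene Junos.

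Junb (ENSMUSG00000052837, chromosome 8, 84974484 to 84978718, minus strand) encodes JUNB, a Jun protein that can act against JUN on some targets. It rose in both fractions at both times. Its nuclear level was 137, 338 and 304 CPM at 0, 12 and 24 h, and its cytoplasmic level 266, 788 and 549 CPM. Both fractions had their highest value at 12 h. The nuclear log2 ratio was 1.31 [1.23, 1.38] at 12 h and 1.15 [1.08, 1.23] at 24 h. The cytoplasmic ratio was 1.56 [1.52, 1.61], or 2.96-fold, and 1.04 [1.00, 1.09], or 2.06-fold. From 12 to 24 h the cytoplasmic value was −0.52 [−0.56, −0.48], under the limit. With total counts the nuclear call at 24 h was lost (0.85). Junb shares 173 exonic bases with Prdx2 on the opposite strand.

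Jund (ENSMUSG00000071076, chromosome 8, 70698949 to 70700616, plus strand), a single-exon gene whose protein is made in most cells without a stimulus, rose in nuclear RNA and stayed under the limit in the cytoplasm. Nuclear levels were 36.7, 85.3 and 95.9 CPM at 0, 12 and 24 h, with log2 ratios of 1.22 [1.08, 1.36] and 1.39 [1.25, 1.53]. The cytoplasmic levels were 286, 405 and 355 CPM, with ratios of 0.50 [0.45, 0.55] and 0.31 [0.26, 0.36]. With total counts the nuclear ratio at 12 h was 1.00 and the call was lost. Of its 1668 bases 877 overlap Gm11175 on the opposite strand.

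The EGR genes were low throughout. Egr1 (ENSMUSG00000038418), the best known of them, had 0, 0 and 4 summed reads in nuclear RNA and 0, 2 and 3 in cytoplasmic RNA at 0, 12 and 24 h. The 0 reads of the untreated groups allow up to 3 reads, which is 0.205 CPM per total counts in the nucleus and 0.134 in the cytoplasm. No change of Egr1 was detectable at this depth. Egr2 (ENSMUSG00000037868, chromosome 10, 67535475 to 67542188, plus strand), which acts in myelination and in macrophages, was at 2.54, 0.130 and 0.545 CPM in the nucleus from 42, 2 and 8 reads. It fell by 4.29 at 12 h [−7.39, −2.35] and by 2.22 at 24 h [−3.52, −1.11]. The wide intervals come with the few reads of the treated groups, and the value at 24 h against 12 h was 2.07 [−0.25, 5.34]. In the cytoplasm 10, 8 and 9 reads gave 0.453, 0.500 and 0.440 CPM. Egr3, a relative outside the 10, was at 4.00, 0.519 and 0.409 CPM in the nucleus and fell by 2.95 [−4.22, −1.88] and 3.29 [−4.79, −2.09]. In nuclei both Egr2 and Egr3 reached the count limit only at 0 h, so the filter favoured a fall. Egr4 had no reads in any of the 6 groups.

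Atf3 (ENSMUSG00000026628, chromosome 1, 191170296 to 191218039, minus strand) rose in both fractions from low levels. In the nucleus it was at 1.03, 2.59 and 2.39 CPM, from 17, 40 and 35 summed reads. Cytoplasmic Atf3 was at 1.18, 4.56 and 2.44 CPM, from 26, 73 and 50 reads. The cytoplasmic group at 12 h was the highest of the 6. In both fractions only the treated groups reached the count limit, so the filter favoured a rise of Atf3. Nuclear log2 ratios were 1.33 [0.48, 2.24] at 12 h and 1.21 [0.34, 2.14] at 24 h, and cytoplasmic ratios 1.95 [1.29, 2.66] and 1.05 [0.34, 1.80]. With total counts the nuclear ratio at 24 h was 0.91 and the call was lost.

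Between 12 and 24 h none of the 9 members compared in the nucleus was called, where 1.83% of all genes rose and 1.19% fell. The values at the ends were Egr2, given above, and Fosb at −0.93 [−1.70, −0.19]. In the cytoplasm 1 of 6 fell, which was Fos, beside 1.89% of all genes that fell and 2.9% that rose. Atf3 was at −0.90 [−1.45, −0.36] in that comparison and Fosl2 at −0.22.

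**Figure D2:**
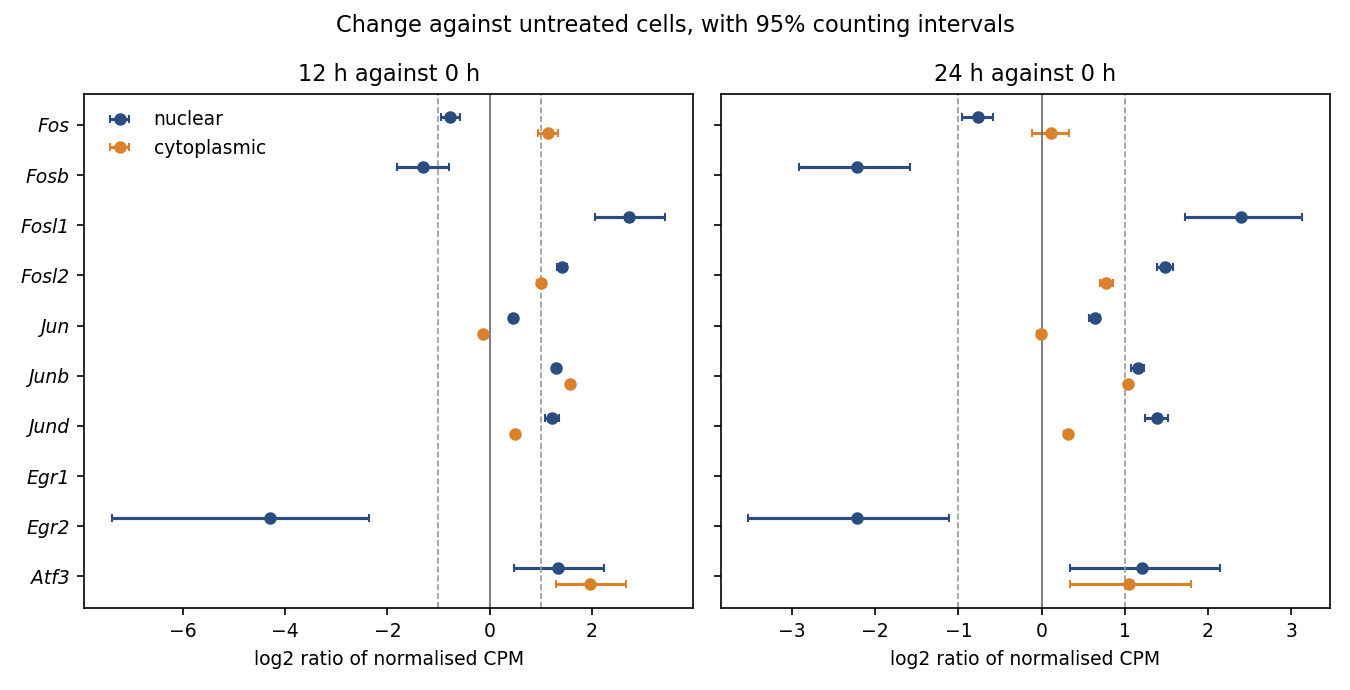
Log2 ratio of normalised CPM against untreated cells at 12 h (left) and 24 h (right), in nuclear RNA (blue) and cytoplasmic RNA (orange). Bars are 95% counting intervals, dashed lines mark 2-fold, the scales of both panels differ, and genes without a point had too few reads. At 12 h nuclear Fos lies at −0.77 and cytoplasmic Fos at 1.14, whereas Junb lies beyond 2-fold in both fractions.

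The share of each member in its family does not depend on how libraries were scaled. Reads were divided by the exonic bases of a gene, counted once, so that genes could be set beside each other. In untreated nuclei Fos made up 65.7% [63.6, 67.7] of the Fos family and Fosl2 27.5% [25.8, 29.3] (exact binomial intervals, counting error only). At 12 h the order had turned, with Fosl2 at 56.6% [54.4, 58.8] and Fos at 29.9% [27.7, 32.2], and at 24 h Fosl2 stood at 59.7% and Fos at 29.9%. Nuclear Fosl1 went from 2.37% to 12.1% and 9.67%, and Fosb from 4.42% to 1.40% and 0.734%. In the cytoplasm Fosl2 was already the larger part at 0 h. It made up 59.7%, 56.8% and 69.2% of the family at 0, 12 and 24 h, and Fos 39.7%, 41.5% and 29.0%. The per-length ratio of Fosl2 to Fos in the nucleus was 0.419 at 0 h. It was 4.52-fold higher at 12 h, at 1.89, and 4.78-fold higher at 24 h. These pair ratios were added after the values had been seen.

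Within the Jun family Junb held the largest share in all 4 treated groups. In cytoplasmic RNA Jund was first at 0 h with 42.0% [41.3, 42.7], followed by Jun with 29.6% [29.1, 30.2] and Junb with 28.4% [27.8, 29.0]. At 12 h Junb held 49.2% [48.6, 49.8], Jund 34.9% and Jun 15.9%, and at 24 h Junb held 41.7%, Jund 37.3% and Jun the rest, with an interval of 20.6% to 21.4%. The cytoplasmic ratio of Junb to Jun per length went from 0.957 at 0 h to 3.10 at 12 h and 1.99 at 24 h. In untreated nuclei Junb and Jun could not be ranked within counting error (ratio 1.03 [0.97, 1.09]), whereas with the length that the deposited TPM implies Junb stood first at 48.6% and Jun at 37.2%. Nuclear Junb was at 42.7%, 52.9% and 47.3% of the family, Jun at 41.5%, 28.7% and 32.1%, and Jund at 15.8%, 18.4% and 20.6%. The gene length used moves these shares and, where they are close, their order. For every member but Junb, the length implied by the TPM equalled the summed bases of all annotated transcripts. For members with more than 1 transcript it thus counts shared bases more than once, with 4368 for Fos and 22888 for Fosb against 2352 and 6243 exonic bases. Jun and Jund have 1 transcript each and the same length either way. For Junb the implied length was 1809 against 2301. With the length implied by the TPM, Junb at 33.5% stood above Jun at 27.5% in the untreated cytoplasm, the reverse of the order given above. Over the 3 times nuclear Fos was then at 57.9%, 22.3% and 22.1% and cytoplasmic Junb at 33.5%, 55.2% and 47.7%.

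**Figure D3:**
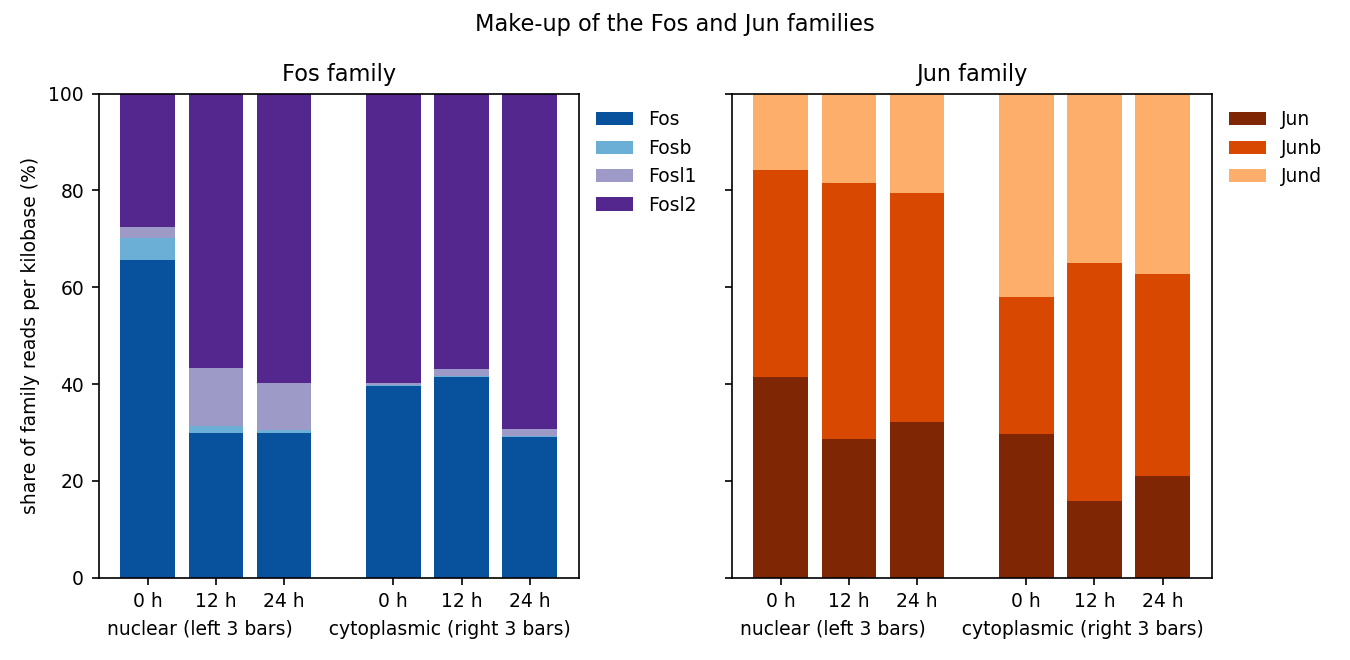
Share of reads per kilobase, in percent, that each gene took of its family, for the Fos family (left) and the Jun family (right) in the 3 nuclear and 3 cytoplasmic groups. Each bar is 1 group and sums to 100%. Nuclear Fos shrinks from 65.7% to 29.9% at 12 h while Fosl2 grows from 27.5% to 56.6%, and cytoplasmic Junb grows from 28.4% to 49.2%.

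Summed over members, and with all 6 groups scaled together, the Fos family stood at 18.5, 23.8 and 23.9 CPM per kilobase in the nucleus and 25.6, 49.3 and 36.0 in the cytoplasm. The Jun family stood higher in every group, at 93.2, 186 and 187 in the nucleus and 638, 996 and 850 in the cytoplasm. On this per-length scale untreated nuclei held, from high to low, Junb (39.8) and Jun (38.7), Jund (14.7), Fos (12.2), Fosl2 (5.09), Fosb (0.819), Egr2 (0.501), Fosl1 (0.439) and Atf3 (0.320). The untreated cytoplasm held Jund (268), Jun (189), Junb (181), Fosl2 (15.3), Fos (10.2), Atf3 (0.854), Egr2 (0.208), Fosl1 (0.139) and Fosb (0.0113, 1 read). The neighbours Egr2, Fosl1 and Atf3 in the nucleus, and Egr2 and Fosl1 in the cytoplasm, rested on 4 to 42 reads each. Close ranks depend on the length used. The TPM length is shorter for Junb and the same for Jun and Jund. For the other members it counts bases shared by transcripts more than once, as given above. In the deposited TPM Junb (433) stood above Jun (356) and Fosl1 (0.196) above Egr2 (0.122) in the untreated cytoplasm, and Fosl1 (1.09) above Fosb (0.744) and Atf3 (0.521) above Egr2 (0.518) in untreated nuclei.

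The nuclear-to-cytoplasmic ratio asks where a gene's RNA was found. It is relative to the scaling of all 6 groups and does not count molecules. At 0 h 3 of 9 members were higher in the nucleus and 5 lower, beside 47.6% and 32.8% of the genes compared. The 3 higher ones, Fosb, Fosl1 and Egr2, reached the count limit in nuclear groups only, so the filter favoured that direction. At 12 h the counts were 2 and 7 (46.4% and 29.3% of all genes), and at 24 h 1 and 4 (45.8% and 28.9%). The members' median was −1.42, −1.57 and −0.84, beside 0.78, 0.81 and 0.75 over all genes. Jund leaned most to the cytoplasm, at −4.18 [−4.31, −4.06], −3.34 and −3.04, and 1.54%, 2.41% and 3.34% of all compared genes lay lower. Jun was at −2.29, −1.57 and −1.57 and Junb at −2.19, −2.32 and −2.00. Scaled to total counts, which moved the all-gene median by 0.96 (24 h) to 1.41 (0 h), Jund was at −2.77, −2.24 and −2.08 and still called, whereas Jun at −0.88, −0.47 and −0.61 was not. Junb was then at −0.77, not called, at 0 h, and at −1.22 and −1.05, still called, at 12 and 24 h. Fosl1 leaned to the nucleus at 1.66 [0.10, 3.65], 1.95 and 2.02. Fosl2 was at −1.59, −1.05 and −0.80 and Atf3 at −1.42, −1.91 and −1.19. Scaling to total counts left Atf3 uncalled at all 3 times and turned Fosl2 to 0.043 at 12 h.

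The ratio of Fos was at 0.26 [0.07, 0.45] in untreated cells, −1.52 [−1.72, −1.33] at 12 h and −0.55 [−0.77, −0.33] at 24 h. It fell by 1.78 from 0 to 12 h [−2.05, −1.51]. Over the scalings and units tried this change ranged from −2.14 to −1.38 and was called in each, although the ratio at a single time moved with them: total counts gave 1.67 at 0 h and −0.42 at 12 h. From 0 to 24 h it was −0.81 [−1.09, −0.52], under the limit. In all, 3 of 9 members shifted toward the cytoplasm at 12 h (Fos, Fosb and Egr2) and none toward the nucleus, beside 6.1% and 10.8% of all genes. At 24 h Fosb and Egr2 were shifted toward the cytoplasm and Jund toward the nucleus, beside 7.68% and 8.8% of all genes. Egr2 reached the count limit only in untreated nuclei, and Fosb only in nuclei at 0 and 12 h. The filter thus favoured a shift of these genes toward the cytoplasm, and the counts are not independent of it. Fosb went from 6.17 [3.67, 11.49] to 2.54 [1.09, 4.48] and 1.11 [−0.15, 2.56], with 1, 4 and 7 cytoplasmic reads, and Egr2 from 1.27 [0.25, 2.43] to −3.04 [−6.31, −0.72] and −0.84, with 2 nuclear reads at 12 h. Neither was called as shifted in the deposited TPM. The shift of Jund was 1.14 [1.00, 1.29] at 24 h, and with total counts it was 0.69.

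**Figure D4:**
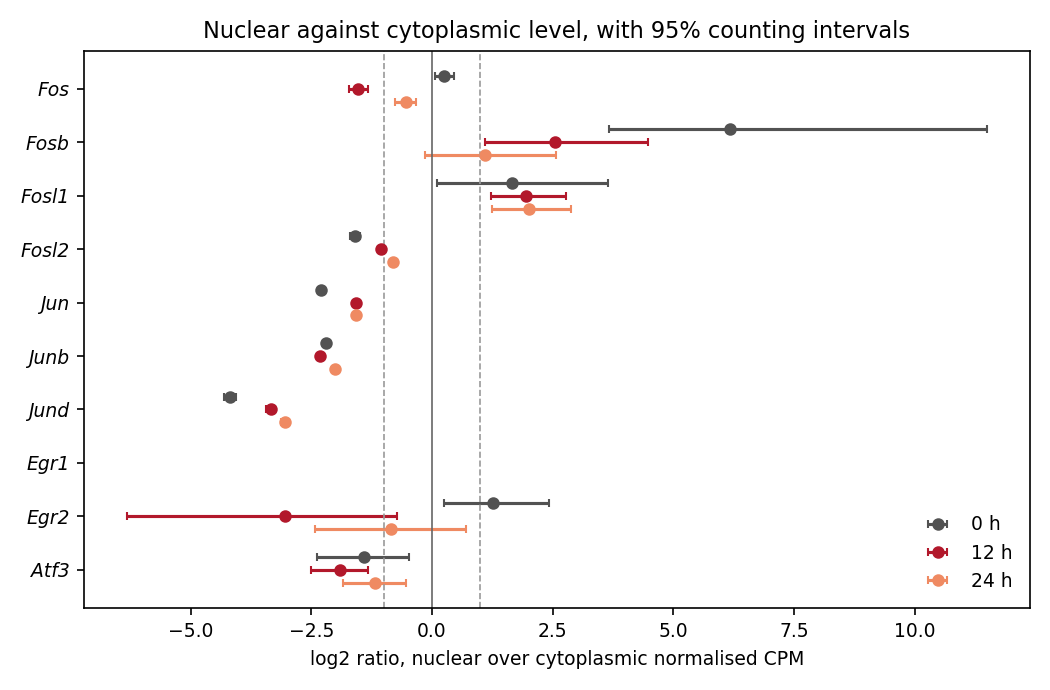
Log2 ratio of nuclear over cytoplasmic normalised CPM at 0, 12 and 24 h, with all 6 groups scaled together and bars for 95% counting intervals. Dashed lines mark 2-fold, and Egr1 had too few reads for a point. The Fos points move from 0.26 at 0 h to −1.52 at 12 h, while Jund stays lowest among the well counted genes at −4.18 to −3.04.

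Genes that act with AP-1 or upstream of it were described by lists chosen with earlier results of these data known. Their counts are to be read beside the shares of all compared genes: 7.92% rose and 6.64% fell in the nucleus at 12 h, 7.88% and 5.75% at 24 h, 11.7% and 8.99% in the cytoplasm at 12 h, and 10.4% and 6.72% at 24 h. Of 26 other basic leucine zipper genes, which encode partners and rivals of AP-1, 2 of 21 compared rose in the nucleus at both times (Cebpb and Cebpd, near the shares of 7.92% and 7.88% over all genes) and none fell, with medians of 0.07 at 12 and 24 h. In the cytoplasm 6 of 23 rose and 2 fell at 12 h (median −0.08), and 5 rose and 2 fell at 24 h (median −0.16). Cebpb, a factor of inflammatory gene expression in macrophages, was at 23.3, 67.9 and 104 CPM in the nucleus and 122, 410 and 326 in the cytoplasm. Its nuclear log2 ratio was 1.54 [1.37, 1.71] at 12 h and 2.16 [1.99, 2.32] at 24 h. Cebpd rose in both fractions at both times, with ratios from 1.29 to 1.68. Maff, a small MAF protein, rose in the cytoplasm from 4.39 to 17.1 and 10.6 CPM, with a nuclear ratio of 0.34 at 12 h. Maf, a large MAF factor of macrophages, fell in the cytoplasm from 74.2 to 25.5 and 34.0 CPM.

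Genes of the MAPK cascade, whose kinases act on AP-1 proteins and on the factors that drive their genes, showed few calls. None of 31 rose or fell in the nucleus at 12 h (median 0.24) or 24 h (0.17). In the cytoplasm none of 29 rose at either time, and 2 fell at 24 h, Mapk7 and Rps6ka4. Map2k1, a kinase that activates ERK, was at 104, 197 and 178 CPM in the nucleus (log2 ratios 0.92 and 0.78). Serum response factor and its partner factors, which act through the CArG box and nearby ETS sites, were listed together with other ETS genes. Of this list 2 of 9 rose and 1 fell in the nucleus at each time, with medians of 0.60 and 0.79. Over all genes 7.92% rose and 6.64% fell there at 12 h, and 7.88% and 5.75% at 24 h. Etv4 and Ets2 rose at 12 h, Srf and Ets2 rose at 24 h, and Etv5 fell at both times. Among 8 compared in the cytoplasm there was no call (0.22 and 0.28). All-gene shares there were 11.7% higher and 8.99% lower at 12 h, and 10.4% and 6.72% at 24 h. Srf was at 14.7, 28.3 and 32.6 CPM in the nucleus. Its ratio was 0.95 [0.72, 1.18] at 12 h and 1.15 [0.92, 1.37] at 24 h, past the limit at the later time. Ets2 rose at both times (1.06 and 1.26), and Elk1 was at 0.99 and 0.87, below the limit.

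Inhibitors of MAPK and EGR signalling formed a list of 22 genes together with genes of the Zfp36 family, which act on mRNA decay. In the nucleus 2 of 21 rose and none fell at 12 h (median 0.11), where 7.92% and 6.64% of all genes did, and 3 rose and 1 fell at 24 h (0.38), beside 7.88% and 5.75%. In the cytoplasm 4 of 18 rose and 1, Zfp36l1, fell at 12 h (0.12), beside 11.7% and 8.99% of all genes. At 24 h 2 rose and 1 fell there (0.05), beside 10.4% and 6.72%. Dusp5, a phosphatase that inactivates ERK in the nucleus, was at 45.8, 130 and 153 CPM in nuclear RNA and 92.3, 390 and 281 in cytoplasmic RNA. Its log2 ratios were 1.51 and 1.74 in the nucleus and 2.08 and 1.61 in the cytoplasm. Dusp10, which acts on JNK and p38, rose in the nucleus (1.47 and 1.19) and in the cytoplasm at 12 h (1.56). Dusp1, another phosphatase of this kind, was not called at either time, with nuclear ratios of −0.31 and −0.78. Nab2, a corepressor of EGR proteins, fell at 24 h in the nucleus (−1.22 [−2.26, −0.26]) and the cytoplasm (−1.18 [−1.78, −0.60]) from 2.06 and 3.98 CPM. Its relative Nab1 was at −0.23 and −0.73 in the nucleus.

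Other immediate early genes went both ways. Of 21 compared in the nucleus 3 rose and 3 fell at 12 h (median 0.03), beside 7.92% and 6.64% of all genes, and 4 rose and 4 fell at 24 h (0.24), beside 7.88% and 5.75%. In the cytoplasm 4 of 17 rose and 4 fell at 12 h (0.32), beside 11.7% and 8.99% of all genes. At 24 h 3 rose and 3 fell there (0.02), beside 10.4% and 6.72%. Ier3, an early gene of cell survival, was at 199, 1085 and 793 CPM in the nucleus and 330, 1869 and 1098 in the cytoplasm, with log2 ratios of 2.44, 1.99, 2.50 and 1.73. Phlda1 rose with ratios from 2.22 to 2.95. Rgs2, which dampens G protein signalling, was at 98.6, 23.9 and 23.9 CPM in the nucleus and 228, 44.5 and 42.2 in the cytoplasm, and fell by 2.05 at both nuclear times. Rgs1 fell by 1.25 in the nucleus at 24 h and by 1.14 and 2.02 in the cytoplasm.

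Of 20 genes described elsewhere as AP-1 or EGR targets, 7 of 17 rose and none fell in the nucleus at 12 h (median 0.69), beside 7.92% and 6.64% of all genes, and 8 rose and 1 fell at 24 h (0.99). In the cytoplasm 5 of 15 rose and 2 fell at 12 h (0.41), beside 11.7% and 8.99% of all genes, and 5 rose and 1 fell at 24 h (0.40). The list includes inflammatory genes that other factors also drive. Mmp13, a collagenase with a well known AP-1 site, was at 7.75, 126 and 22.0 CPM in the nucleus and 5.89, 123 and 20.4 in the cytoplasm. Its level peaked at 12 h in both fractions, with log2 ratios of 4.02 and 4.39 there and 1.51 and 1.79 at 24 h. Ptgs2, the inducible cyclooxygenase, had ratios of 3.53 and 2.53 in the nucleus and 4.05 and 2.60 in the cytoplasm. Il6 and Tnf, both inflammatory cytokines, rose in both fractions at both times, with ratios from 4.01 to 5.49 and from 2.80 to 5.96. Only treated groups reached the count limit for Il6 in both fractions and for Tnf in the cytoplasm, so the filter favoured these rises. Untreated cytoplasm held mean counts of 1.33 for Il6 and 3.33 for Tnf. The cytoplasmic ratios at 12 h were 5.31 [3.91, 7.21] and 5.96 [5.07, 7.03].

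For the 5 members with a mean count of at least 10 in every group, the genes with the most similar course were sought among 7277 genes. Likeness was the root mean square difference of log2 CPM over the 6 groups, each gene centred on its own mean. Closest to Fos were Coa4 (0.17), Btg2 (0.18) and Ddit3 (0.18), where the median gene stood 0.92 away. Btg2, itself an early gene, was at 58.0, 41.9 and 42.5 CPM in the nucleus and 70.6, 106 and 65.8 in the cytoplasm on the scale of all 6 groups. It was picked for its likeness to Fos, so the shared course is not a separate result. Closest to Junb were Pde4b (0.11), Cebpd (0.12) and Creld2 (0.15), with a median of 0.94. Closest to Fosl2 were Ankrd33b (0.11), Pdia4 (0.13) and Apobr (0.16), with a median of 0.88. Rnf219 (0.03), Akap11 (0.04) and Txndc12 (0.05) lay closest to Jun, whose median distance was 0.67. Cenpb (0.05), the pseudogene Vdac3-ps1 (0.07) and Ndufa8 (0.09) lay closest to Jund, with a median of 1.32. Among the 5 members themselves Fosl2 and Junb were nearest to each other (0.54) and Fos and Jund farthest apart (1.63). All these distances share the same 6 means and their scaling. The closest genes were picked by their distance, so lying under the median was fixed by the choice.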

How the data were processed

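Nuclear and cytoplasmic RNA of BV2 cells was sequenced in 3 libraries per group. Per the submitters' processing notes, the tools were HISAT2 2.2.0, featureCounts and DESeq2 on GRCm38. The sources used here give neither the strand option nor the annotation release. The authors deposited 1 expected count per gene and group, read as the mean of the 3 libraries because each value times 3 was whole within 0.001. The deposited TPM were made from the same means with a fixed length for each gene. No per-library values were analysed here, and the number of per-sample columns left unused was 0. Nothing in the labels says that the libraries came from separate cultures.

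Counts were scaled by trimmed mean of M-values (30% and 5% trimmed) with numpy 2.4.6, scipy 1.17.1 and pandas 2.3.3 under Python 3.11.15, and plotted with matplotlib 3.10.9. The nuclear and the cytoplasmic groups were scaled separately for changes over time, and all 6 groups together for ratios between fractions. Genes needed 10 mean counts at the median depth in 1 group of a set. Log2 ratios carry 95% intervals of the summed reads (exact Clopper-Pearson, and a normal approximation for changes of the nuclear-to-cytoplasmic ratio). A call needed at least 2-fold. The limit of a group with 0 reads is 3 reads. The computation was tested on simulated data. Alternatives were other scalings, deposited TPM with pseudocounts of 1 and 0.1, other count limits and a 1.5-fold limit. Gene symbols and positions come from GENCODE M21 on GRCm38, and promoters from RefSeq (GRCm38.p6).

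The members and lists were chosen with earlier results of these data known. Genes outside the 10 were named by rule: up to 4 per list with the largest absolute log2 ratio among those compared in both fractions at a mean of at least 5 CPM, the 3 genes most like each well counted member, and Egr3, Egr4, Srf, Nab1, Nab2 and Dusp1. Rps6ka4, Etv4 and Etv5 were named after their values were seen, to spell out small counts. The genes of the MAPK list that fell in the cytoplasm at 12 h are not reported here. A planned comparison of protein segments was not made.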

Additional observations from a re-analysis of the deposited data

Results flagged for a closer look

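Fos and Jun had opposite signs in the 2 fractions at 12 h, with both counting intervals clear of 0. The log2 ratio against untreated cells was −0.77 in nuclear and 1.14 in cytoplasmic RNA for Fos, and 0.46 and −0.13 for Jun. Each value compares 2 means of 3 libraries, so the difference between fractions was not tested across libraries. For Fos the opposite signs were also present with total counts (−0.99 and 1.11), with median-of-ratios scaling (−0.77 and 1.12) and in the deposited TPM with a pseudocount of 1 (−1.01 and 0.37). For Jun both values lay under 2-fold, and the deposited TPM gave 0.15 and −0.87. The fibroblast and muscle markers that reached 29.2 CPM in cytoplasmic RNA at 12 h move with the same group, and their part was not tested.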

How the results depend on the processing

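No paired analysis was possible because each group holds 1 mean column without replicate numbers, and for the same reason no library could be left out. The calls of members were recomputed 540 times, and 405 kept their call. Of 294 recomputed called values 180 kept the call and 7 changed sign. All 7 were ratios between fractions: Fosl2 at 0.12 (0 h) and 0.30 (12 h) and Atf3 at 0.29 (0 h) and 0.13 (24 h) with total counts less the most abundant nuclear gene, and Fosl2 at 12 h at 0.043 with total counts, 0.068 with log2(TPM + 1) and 0.070 with log2(TPM + 0.1). Counts of called members that differed by over 1.5 times from the reported ones follow. With log2(TPM + 1) they were 3 and 2 in the nucleus at 12 and 24 h (7 reported for each), 0 and 0 in the cytoplasm (4 and 2), 0 for cytoplasm at 24 against 12 h (1), 4, 3 and 3 between fractions at 0, 12 and 24 h (8, 9 and 5) and 0 for the shift at 24 h (3). With log2(TPM + 0.1) they were 4 in the nucleus at 24 h, 1 and 0 in the cytoplasm, 0 for cytoplasm at 24 against 12 h, 4 and 3 between fractions at 12 and 24 h, and 0 for the shift at 24 h. Centring those values on the median of all genes, an alternative chosen after seeing the data, gave 1 in the cytoplasm at 24 h, 5 between fractions at 0 h, and 1 for each shift. Total counts gave 1 in the nucleus at 24 against 12 h (0 reported), 0 in the cytoplasm at 24 against 12 h, and 5 and 4 between fractions at 0 and 12 h. Without the most abundant nuclear gene they gave 0 in that cytoplasmic comparison and 5, 3 and 3 between fractions. A 1.5-fold limit gave 1 (nucleus) and 2 (cytoplasm) at 24 against 12 h and 5 and 6 for the shifts, and a minimum of 30 counts gave 1 in the cytoplasm at 24 h. With the length implied by the TPM, the share of Fos in the nuclear Fos family was 57.9%, 22.3% and 22.1%, and that of Junb in the cytoplasmic Jun family 33.5%, 55.2% and 47.7%. Total counts moved the all-gene median by −0.22 and −0.30 in the nucleus at 12 and 24 h, and the share of higher among called genes from 54.4% to 31.9% and from 57.8% to 27.5%. With log2(TPM + 1) the cytoplasmic median at 12 h moved by −0.67 and that share from 56.5% to 14.5%. The causes were not tested. Depth limited Egr1, Egr2, Fosb, Atf3 and, in the cytoplasm, Fosl1, each with under 20 summed reads in at least 1 group.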
